A study of Homo sapiens with 6 samples.

Results

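Solute carriers are the membrane proteins that move amino acids, metals, ions, nucleosides, vitamins and metabolites across the plasma membrane and into organelles. Members were the rows of the deposited table whose gene name has the form SLC, family number, A, member number, or begins with SLCO and a number. SLC7A11, SLC3A2, SLC2A1, SLC2A3 and SLC16A3 were set aside by name. This gave 59 genes of 28 families among the 3511 genes in the table. The symbols follow the deposited table, so the lysosomal cationic amino acid carrier listed under its older name PQLC2 (now SLC66A1) was not a member.

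The cells were RKO, a human colorectal cancer cell line labelled wild type, and their RNA was sequenced. Libraries were compared after 48 h in control medium with 10% fetal bovine serum and 4.5 g/L glucose (3 libraries) and in fasting medium with 1% serum and 1 g/L glucose (3 libraries). All libraries thus come from 1 line, and serum and glucose changed together, so their effects cannot be told apart. The comparison asks which carriers differ in transcript level after this combined withdrawal. The drug arms that the series' design text names were not analysed here.

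As background, most carriers use gradients rather than ATP. Plasma membrane amino acid carriers fall into sodium-coupled loaders and exchangers that trade one amino acid for another, and several of their genes are known targets of ATF4, the transcription factor of the amino acid response. The SLC25 family sits in the inner mitochondrial membrane and links cytosolic and matrix pools of nucleotides, phosphate, amino acids and cofactors. The SLC39 and SLC30 families carry zinc and other metals into and out of the cytosol, and cation-chloride carriers (SLC12) and sodium-proton exchangers (SLC9) set cell volume and pH.

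The table holds only genes that the authors had called. In the authors' deposited table no adjusted p exceeds 0.04999, and its 3511 listed genes are 11.8% of the 29845 genes they tested. A solute carrier outside the table has no value here. Current symbols of the same form are carried by 345 protein-coding genes of GENCODE release 29, the 5 set-aside genes left out. The 59 members are 17.1% of these, against 15.4% of all 19951 protein-coding genes, whether expressed or not. The 345 genes include SLC66A1, which is listed as PQLC2 and is not counted among the 59. By family, 3 of 4 SLC29, 4 of 9 SLC12, 5 of 13 SLC16 and 12 of 48 SLC25 genes were listed, and 0 of the 12 remaining SLC2 genes.

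Reads in the listed genes ranged from 4017618 to 5602177 per library, of which the members took 1.69% to 2.01%. Total depth is unknown. Values are normalized counts, reads divided by a size factor per library. Fasting replicate 3 differed from the other fasting libraries by a chi-square per gene of 56.5 and 56.1, against 1.87 between those 2 libraries and 2.14 to 6.61 between controls, where sampling noise alone gives 1. Of 12 colorectal epithelial markers only KRT18 was listed, and none of 8 fibroblast, 5 leukocyte and 4 endothelial markers was, so the labelled cell type could not be checked. Nothing in the labels says that replicates were separate cultures, so the p-values cover only variation among these libraries, which may be technical.

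Differences are given as fasting minus control after taking log2 of the normalized count plus 1, called log2 fold changes here. They were tested with limma over all listed genes, with an adjusted p under 0.05 as the threshold, and "rose" and "fell" are used only for genes past it. Of the 59 members 31 rose (52.5%) and 25 fell (42.4%), against 49.7% and 44.6% of all listed genes (94.3% in either direction). Both shares are near the background of this table. A change of at least 2-fold was seen upward in 10 members (16.9%, background 26.6%) and downward in 6 (10.2%, background 19.8%). The groups did not overlap in any of the 59 members, as in 100% of listed genes. The median member lay at 0.59 and the median listed gene at 0.53. Since the table holds few genes near 0, such a median mainly follows which direction is the more frequent.

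Scaling moves the balance of rises and falls. Under the authors' size factors 55.4% of called members rose. When edgeR used summed listed-gene reads as library sizes (total-read scaling), which shifts log2 fold changes by -0.48, 14 members rose and 28 fell, so that 33.3% of called members rose, and the rest of the table moved alike (33.6%, against 52.7%). With RLE factors, a shift of 0.20, 31 rose and 18 fell (63.3%). RLE and TMM factors were computed from the listed genes only, 94.3% of them called, although such factors presume mostly unchanged genes. They show how calls depend on scaling and are not a better scale. All directions below are relative to the authors' size factors.

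**Figure D1:**
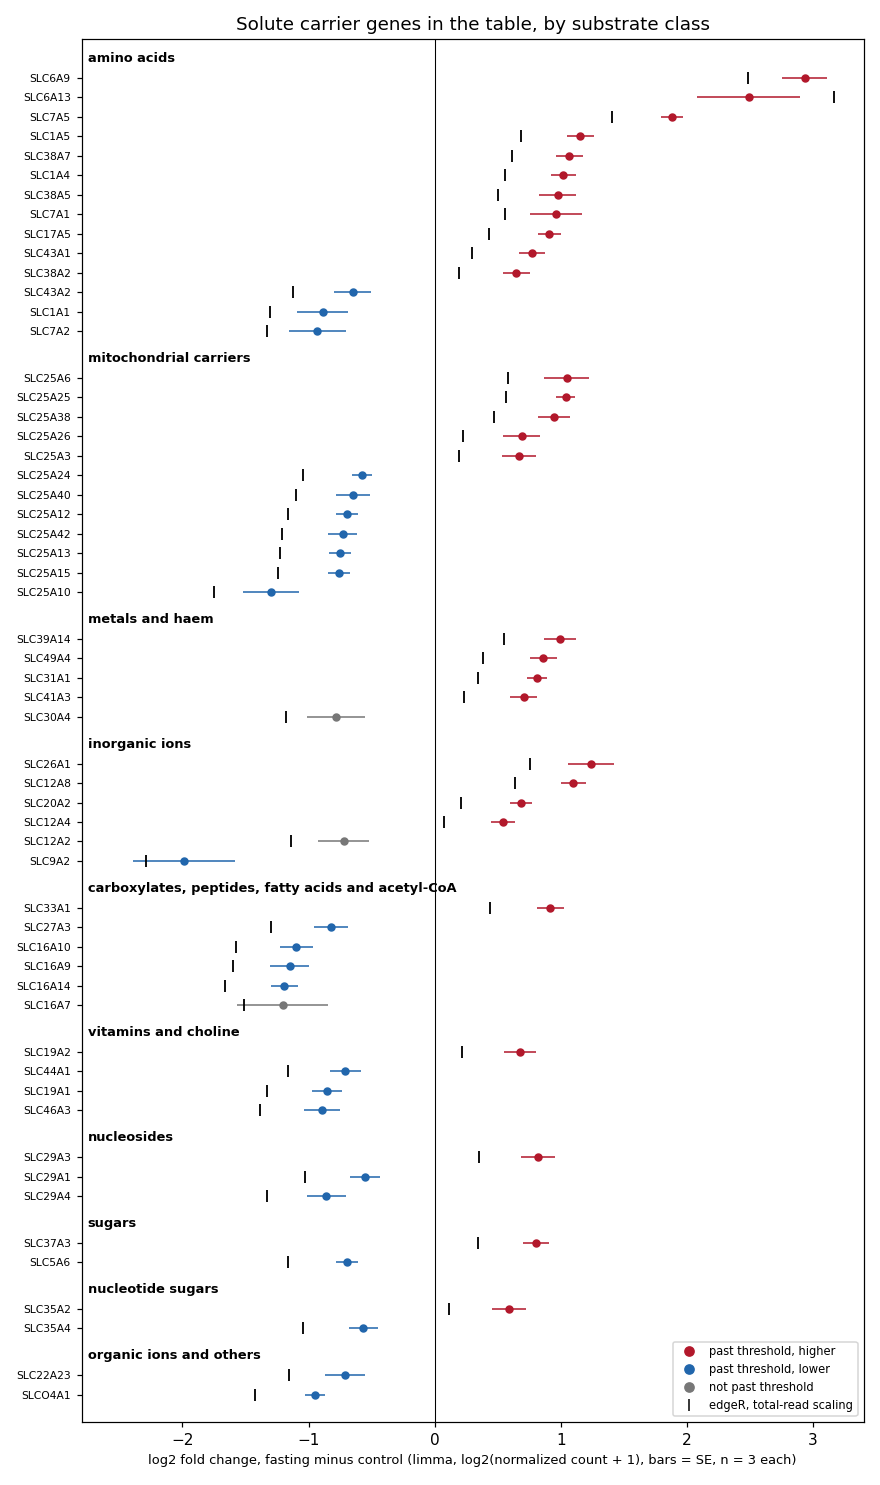
Log2 fold change (fasting minus control, horizontal axis) of 56 of the 59 members, grouped by substrate class, with bars for the standard error (limma, 3 libraries a group) and black ticks for edgeR with total-read scaling. Values run from -1.99 for SLC9A2 to 2.93 for SLC6A9, and the amino acid class holds the 3 largest rises.

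Amino acid carriers, the largest class, held the most rises. Of 14 listed members 11 rose and 3 fell, beside 49.7% and 44.6% of all listed genes. These 2 shares are the background of every class and list count below. Classes follow family number, so this one holds the sialic acid carrier SLC17A5, which rose. It leaves out the aromatic amino acid carrier SLC16A10, which fell. Metal carriers (4 of 5) and inorganic ion carriers (6 of 8) rose in a similar proportion. The median of the amino acid class lay at 0.97. The median of all listed genes, 0.53, changed sign with the filter on low values and is a weak reference. Summed normalized counts of the class were 22808 to 24506 in the controls and 44002 to 47826 in fasting medium, mostly through a few abundant genes. The rises covered sodium-coupled loaders, exchangers and lysosomal exporters, and the falls took in the glutamate carrier SLC1A1, the cationic carrier SLC7A2 and the neutral carrier SLC43A2.

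SLC6A9 (ENSG00000196517), the plasma membrane glycine transporter GlyT1, lay at 22.7, 20.6 and 29.1 normalized counts in control replicates 1 to 3 and at 201, 163 and 206 in fasting replicates 1 to 3. The gene rose 7.64-fold (log2 fold change 2.93 ± 0.18 SE, adjusted p = 5.90e-05). This was the largest rise among the members. SLC6A13 (ENSG00000010379), the carrier GAT2 of taurine and GABA, was close to silent in control medium, with 1, 0 and 1 reads, and had 4, 7 and 8 reads in the fasting libraries. As normalized counts these are 0.986, 0 and 0.727 against 5.08, 7.32 and 11.0. The ratio of the pooled normalized reads was 14.6, with an exact 95% interval for counting error of 3.52 to 129. Its log2 fold change of 2.49 (adjusted p = 4.82e-03) rests on these few reads and on the added 1.

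SLC7A5 (ENSG00000103257), the light chain LAT1 that exchanges large neutral amino acids, lay at 2475, 2582 and 2893 in the controls and at 9865, 9797 and 9638 in fasting medium. The fasting libraries agreed closely with one another, and the rise was 3.69-fold (1.88 ± 0.09, adjusted p = 2.08e-05). It was the smallest adjusted p among the members. Its partner chain SLC3A2 is among the genes set aside.

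SLC1A5 (ENSG00000105281), the glutamine exchanger ASCT2, went from 2904, 2958 and 2964 to 5997, 6134 and 7658, a 2.23-fold rise (1.16 ± 0.11, adjusted p = 3.59e-04), with fasting replicate 3 the highest. Its close relative SLC1A4, the serine and alanine exchanger ASCT1, rose by a similar amount, from 554 ± 35.4 to 1126 ± 87.6 (SD, n = 3 each, log2 fold change 1.02). The third listed SLC1 gene went the other way. SLC1A1, the glutamate transporter EAAC1, fell from 228 ± 10.4 to 126 ± 33.6 (-0.89, adjusted p = 0.0246).

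The SLC38 family of sodium-coupled neutral amino acid carriers had 3 listed members, and all 3 rose. SLC38A7, a lysosomal glutamine exporter, rose by 1.07, SLC38A5 by 0.97 and SLC38A2 by 0.65 log2 units. SLC38A2, the SNAT2 carrier known for its induction by amino acid deprivation, was high in both media (8612 ± 318 and 13566 ± 1662) and had the smallest rise of the class. SLC17A5, the lysosomal sialic acid carrier sialin, rose from 391 ± 3.98 to 736 ± 51.4 (0.91, adjusted p = 5.19e-04).

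The listed SLC7 and SLC43 genes also moved in both directions. SLC7A1, the arginine and lysine importer CAT1, lay at 3298, 3264 and 3471 in the controls and at 8135, 7552 and 4514 in fasting medium (0.96 ± 0.21, adjusted p = 0.0176). Its paralogue SLC7A2 (ENSG00000003989), which carries the same substrates, lay at 1096, 1063 and 1092 and at 712, 684 and 377, and fell by 0.93 log2 units (adjusted p = 0.0343). Fasting replicate 3 was the lowest fasting library for both. Among the sodium-independent neutral carriers SLC43A1 (LAT3) rose by 0.77 and SLC43A2 (LAT4) fell by 0.65.

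SLC7A1 and SLC43A2 lost their calls whenever 1 library other than fasting replicate 3 was dropped (adjusted p = 0.0642 to 0.0765 and 0.0777 to 0.120), and SLC1A1 and SLC7A2 without any 1 control library (0.0840 to 0.112 and 0.107 to 0.139). With total-read scaling 8 members rose, and SLC7A1 (0.56), SLC43A1 (0.30) and SLC38A2 (0.19) no longer passed, while with RLE factors the 3 falls did not pass (-0.45 to -0.67). Removing the trend with transcript length brought SLC43A2 to -0.02 and SLC7A2 to -0.33, neither past the threshold.

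Promoter windows of amino acid carriers were searched for the amino acid response element core TGATGNAA, which ATF4 and its C/EBP partners bind, on both strands. RefSeq windows (GRCh38.p14) of 250 bases before to 50 after each annotated start were matched by symbol for 51 of the 59 members, 76 windows in all, and a gene was counted if any of its windows held the letters. The core was found in 3 of 51 members (5.88%), SLC1A5, SLC1A4 and SLC7A1. All 3 belong to the 13 amino acid carriers with a window (23.1%). All 3 rose, as did 11 of the 14 listed members of that class. Over all 27305 genes with windows the share was 4.46%, among listed genes that rose it was 4.95% and among those that fell 2.56%. The number of windows differs between genes, and a match shows letters, not a bound site. The windows are printed from 5′ to 3′ on the gene's strand, with the core in capitals, because they are the member windows that hold these letters.
SLC1A5, chr19:46784765-46785064, minus strand, a start downstream of the gene's other annotated ones, core from position -97: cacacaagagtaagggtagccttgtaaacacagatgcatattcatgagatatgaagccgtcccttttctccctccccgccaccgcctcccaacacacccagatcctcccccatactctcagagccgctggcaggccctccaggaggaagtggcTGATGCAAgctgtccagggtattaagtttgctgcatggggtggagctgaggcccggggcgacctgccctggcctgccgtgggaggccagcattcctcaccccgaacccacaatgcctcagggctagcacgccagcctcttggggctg
SLC1A4, chr2:64989149-64989448, plus strand, the core read on the opposite strand, from position -7: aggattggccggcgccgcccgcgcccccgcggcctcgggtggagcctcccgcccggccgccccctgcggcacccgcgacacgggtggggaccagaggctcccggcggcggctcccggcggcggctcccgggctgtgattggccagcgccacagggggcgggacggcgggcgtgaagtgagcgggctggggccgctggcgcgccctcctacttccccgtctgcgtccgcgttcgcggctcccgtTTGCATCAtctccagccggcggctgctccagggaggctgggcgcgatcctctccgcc
SLC7A1, chr13:29595639-29595938, minus strand, core from position 8 after the start: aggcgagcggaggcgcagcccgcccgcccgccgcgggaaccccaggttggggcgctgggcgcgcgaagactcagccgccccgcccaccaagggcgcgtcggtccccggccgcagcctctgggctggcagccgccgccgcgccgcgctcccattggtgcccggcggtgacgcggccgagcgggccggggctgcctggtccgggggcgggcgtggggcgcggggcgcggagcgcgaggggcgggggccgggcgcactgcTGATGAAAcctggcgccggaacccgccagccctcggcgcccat

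In these windows the capitals TGATGCAA of SLC1A5, TTGCATCA of SLC1A4 (the reverse complement) and TGATGAAA of SLC7A1 are the letters that matched. The antioxidant response core TGACNNNGC was present in 12 of 51 members (23.5%, against 16.1% of all genes). Among listed genes it was present in 22.3% of those that rose and 16.1% of those that fell. The 12 members were 7 of 26 risers (26.9%) and 5 of 22 fallers (22.7%) with a window. A metal response core, TGCACNC or TGCGCNC, was present in 27 of 51 (52.9%, against 33.4% of all genes), 12 risers, 14 fallers and SLC30A4. In the metal class it was found in 1 of 4 members with a window. Among listed genes the metal core was present in 43.6% of those that rose and 50.8% of those that fell.

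**Figure D2:**
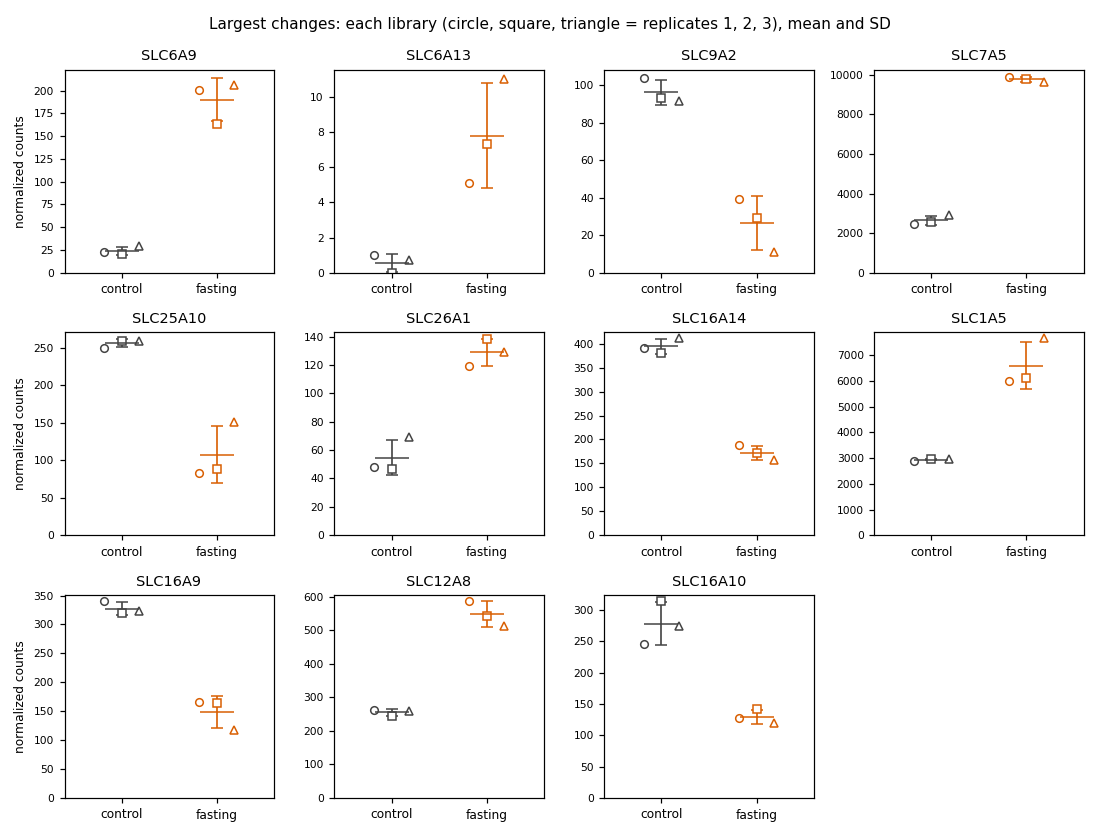
Normalized counts (vertical axes from 0) in each library of 11 members among those with the largest absolute log2 fold change past the threshold, with mean and SD of 3 libraries per medium. SLC7A5 holds its fasting libraries between 9638 and 9865, whereas fasting replicate 3 (triangle) lies lowest in SLC9A2 at 11.0 and highest in SLC25A10 at 151.

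Mitochondrial carriers moved in both directions. Of 12 listed SLC25 genes 5 rose and 7 fell, with a median of -0.61. The abundant nucleotide and phosphate carriers were among those that rose, and the carriers of aspartate, ornithine, dicarboxylates and coenzyme A were among those that fell. Summed counts of the class ran from 20487 to 21747 in the controls and were 31314, 31630 and 44455 in fasting replicates 1 to 3, mostly from SLC25A6 and SLC25A3.

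SLC25A6 (ENSG00000169100), the ADP/ATP carrier ANT3, lay at 8469, 8795 and 10062 in the controls and at 16048, 16462 and 24985 in fasting medium. It rose 2.07-fold (1.05 ± 0.18, adjusted p = 5.30e-03), with fasting replicate 3 well above the other 2 libraries. Without that library its log2 fold change was 0.84, and with the length trend removed 0.78, both past the threshold. Close relatives and processed pseudogenes make the division of its reads uncertain. SLC25A3, the phosphate carrier that supplies ATP synthase, showed the same pattern of libraries, from 6855 ± 306 to 11002 ± 2129 (0.67, adjusted p = 0.0139). Its value was 0.51 without fasting replicate 3 and 0.41 with the length trend removed, both past the threshold.

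SLC25A25 and SLC25A24 both exchange ATP-Mg for phosphate under calcium control, and they moved in opposite directions. SLC25A25 lay at 961, 1007 and 1040.1 in the controls and at 2099.6, 1989.5 and 2087 in fasting medium, so the libraries of each group were close, and it rose 2.05-fold (1.04 ± 0.08, adjusted p = 1.38e-04). SLC25A24 fell from 737 ± 3.82 to 494 ± 16.6 (-0.58, adjusted p = 2.34e-03). SLC25A38, which imports glycine for haem synthesis, rose from 641 ± 32.2 to 1244 ± 211 (0.94). SLC25A26, the S-adenosylmethionine carrier, rose by 0.69.

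SLC25A10 (ENSG00000183048), the dicarboxylate carrier, had the largest fall of the class. It lay at 251, 259 and 259 in the controls and at 82.5, 88.9 and 151 in fasting medium, a log2 fold change of -1.30 ± 0.22 (adjusted p = 5.68e-03). Fasting replicate 3 was the nearest to the controls, and without it the value was -1.57.

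Both aspartate-glutamate carriers of the malate-aspartate shuttle fell by like amounts, SLC25A12 (aralar) from 528 ± 12.6 to 326 ± 12.1 (-0.69) and SLC25A13 (citrin) from 718 ± 15.2 to 427 ± 23.4 (-0.75). SLC25A15, the ornithine carrier of the urea cycle, fell from 536 ± 11.2 to 316 ± 10.2 (-0.76). For these 3 genes the SD within a group was small beside the difference, with adjusted p between 8.89e-04 and 1.45e-03. SLC25A42, the coenzyme A carrier, fell by 0.73 and SLC25A40, a relative of the mitochondrial glutathione carrier, by 0.65.

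SLC25A26, SLC25A3 and SLC25A40 lost their calls without any 1 control library (adjusted p = 0.0632 to 0.0879, 0.0517 to 0.0791 and 0.0514 to 0.0866). With total-read scaling SLC25A26 (0.22) and SLC25A3 (0.19) did not pass, and with RLE factors SLC25A40 (-0.43) did not.

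Metal carriers rose in 4 of 5 listed cases under the authors' scaling. SLC39A14 (ENSG00000104635), the ZIP14 importer of zinc, iron and manganese, lay at 3068, 2987 and 2946 in the controls and at 6717, 6538 and 4870.5 in fasting medium. It rose 1.99-fold (1.00 ± 0.13, adjusted p = 1.56e-03), and fasting replicate 3 was the lowest fasting library. SLC31A1, the copper importer CTR1, rose from 1758 ± 25.9 to 3091 ± 189 (0.81, adjusted p = 4.62e-04). SLC41A3, of the magnesium carrier family, rose by 0.71, and SLC49A4, a lysosomal membrane protein placed here by its family number, by 0.86.

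SLC30A4, the zinc exporter ZnT4, lay at 221, 210 and 201 and at 156, 141 and 82.5 and did not pass (-0.78 ± 0.23, adjusted p = 0.0872). Dropping fasting replicate 3 gave -0.50 and an adjusted p of 2.94e-03, and it also passed without fasting replicate 1, with DESeq2 and with total-read scaling. It did not pass with RLE factors (-0.52, adjusted p = 0.304) or with the length trend removed, which brought it to -0.21. None of the 4 rises passed with total-read scaling (0.23 to 0.55). Of 19 further genes of metal handling, among them the metallothioneins, only the magnesium transport mediator CNNM3 was listed, and it fell by 0.70.

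Inorganic ion carriers rose in 6 of 8 listed cases, with a median of 0.75. SLC12A4 (KCC1), a potassium-chloride cotransporter that exports chloride, rose by 0.54. The sodium-potassium-chloride importer SLC12A2 (NKCC1) had the opposite sign. It lay at 907, 984 and 850 in the controls and at 611, 702 and 393 in fasting medium and did not pass (-0.72 ± 0.20, adjusted p = 0.0664). Dropping fasting replicate 3 gave -0.48 and an adjusted p of 3.31e-04, and it passed as well without fasting replicate 2, with a replicate block, with DESeq2 and with total-read scaling. With RLE factors it was -0.48 (adjusted p = 0.333) and with the length trend removed -0.16, neither past the threshold.

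SLC12A8 (ENSG00000221955), a distant member of the same family, lay at 262, 243 and 260 in the controls and at 589, 544 and 512 in fasting medium. It rose 2.14-fold (adjusted p = 3.02e-04). SLC26A1 (ENSG00000145217), a sulphate and oxalate exchanger, lay at 48.3, 46.9 and 69.0 and at 119, 138 and 129, the largest rise of the class (1.24 ± 0.18, adjusted p = 2.67e-03). SLC20A2, a sodium-phosphate importer, rose from 564 ± 34.3 to 904 ± 30.0 (0.68).

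SLC9A2 (ENSG00000115616), the epithelial sodium-proton exchanger NHE2, lay at 104, 93.1 and 91.6 in the controls and at 39.4, 29.3 and 11.0 in fasting medium. Its log2 fold change of -1.99 ± 0.41 (adjusted p = 0.0142) was the largest fall among the members. Fasting replicate 3 was the lowest library. Without it the value was -1.47, and SLC25A10 at -1.57 then lay lower.

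SLC9A2 lost its call without any 1 control library (adjusted p = 0.0537 to 0.0662) and SLC12A4 without control replicate 2 (0.0514). With total-read scaling SLC26A1 and SLC12A8 rose, and SLC20A2 (0.21) and SLC12A4 (0.07) did not pass.

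The monocarboxylate family SLC16 had 5 listed members, all with negative values, of which 4 fell. SLC16A14 lay at 392, 381 and 411 and at 188, 172 and 158 (-1.19 ± 0.11, adjusted p = 3.16e-04). SLC16A9, an MCT9 carrier linked to carnitine, lay at 340, 319 and 323 and at 165, 164 and 117 (-1.15 ± 0.15, adjusted p = 1.78e-03). SLC16A10, the aromatic amino acid carrier TAT1, lay at 247, 315 and 274 and at 127, 141 and 120 (2.14-fold lower, adjusted p = 1.16e-03). In all 3 genes fasting replicate 3 was the lowest library.

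SLC16A7, the pyruvate importer MCT2, lay at 183, 191 and 169 and at 109, 109 and 39.9. It did not pass (-1.20 ± 0.36, adjusted p = 0.0945). Dropping fasting replicate 3 gave -0.73 and an adjusted p of 1.75e-04, and it also passed with DESeq2, TMM factors, a replicate block and total-read scaling. It did not pass with RLE factors (-0.85, adjusted p = 0.155) or with the length trend removed (-0.42, adjusted p = 0.606). The gene has the longest transcript of the members, 11777 bases. The 4 falls of the family passed in every setting tried.

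In the same substrate class SLC27A3, of the fatty acid transport proteins, fell from 150 ± 11.7 to 84.7 ± 7.46 (-0.82). SLC33A1 (ENSG00000169359), which carries acetyl-CoA into the endoplasmic reticulum, was its single riser. It lay at 192, 217 and 193 in the controls and at 373, 360 and 407 in fasting medium (0.92 ± 0.11, adjusted p = 9.57e-04).

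Vitamin and choline carriers fell in 3 of 4 listed cases. SLC19A1, the reduced folate carrier, fell from 1146 ± 75.3 to 636 ± 88.7 (-0.86, adjusted p = 2.02e-03). Its relative SLC19A2, the thiamine carrier, went from 516, 525 and 454 to 864, 861 and 671 and rose (0.67 ± 0.13, adjusted p = 9.19e-03). SLC44A1, a choline carrier, fell by 0.71, and the lysosomal carrier SLC46A3 from 66.1, 67.5 and 64.0 to 36.8, 32.4 and 35.8 (-0.89 ± 0.14). SLC5A6 is grouped with the sugar carriers by family number but imports biotin and pantothenate. It lay at 1315, 1262 and 1366 and at 882, 768 and 787, a fall (-0.70 ± 0.09, adjusted p = 1.51e-03).

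SLC19A2 no longer passed when control replicate 3 was dropped (adjusted p = 0.0554) or under total-read scaling (0.22). SLC44A1, whose transcript has 10511 bases, turned from -0.71 to 0.04 when the trend with transcript length was removed.

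Of 3 listed nucleoside carriers 2 fell and 1 rose. SLC29A1 (ENT1), the main plasma membrane nucleoside carrier, fell from 2024 ± 132 to 1387 ± 198 (-0.55, adjusted p = 0.0160). SLC29A4, the monoamine carrier PMAT of the same family, lay at 422, 449 and 466 and at 220, 215 and 311 (-0.86 ± 0.15, adjusted p = 7.36e-03). SLC29A3 (ENT3), which works in lysosomes, lay at 131, 122 and 128 and at 208, 208 and 263 and rose (0.82 ± 0.13, adjusted p = 4.19e-03).

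SLC29A1 lost its call without control replicate 1 or 3 or fasting replicate 1 or 2 (adjusted p = 0.0700 to 0.0927) and with RLE factors (-0.35). SLC29A3 did not pass with total-read scaling (0.35), nor SLC29A4 with the length trend removed (-0.43).

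Of the remaining members SLC37A3, of the sugar phosphate family, went from 718, 687 and 661 to 1330.4, 1230.1 and 1064 (0.81 ± 0.10, adjusted p = 1.55e-03). The Golgi UDP-galactose carrier SLC35A2 rose from 396, 429 and 474 to 581, 611 and 778 (0.59 ± 0.13, adjusted p = 0.0241). SLC35A4 fell from 1312, 1223 and 1443 to 875, 809 and 1011 (-0.56 ± 0.11, adjusted p = 0.0119). SLCO4A1 (ENSG00000101187), an organic anion transporting polypeptide, lay at 2263, 2201 and 2416 and at 1158, 1179.9 and 1232. The libraries of each group were close, and it fell (-0.95 ± 0.08, adjusted p = 2.18e-04). SLC22A23 fell by 0.71.

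SLC35A2 did not pass when a control library or fasting replicate 2 was dropped (adjusted p = 0.0537 to 0.128) and with total-read scaling (0.11), SLC35A4 without control replicate 1 or 3 or fasting replicate 1 or 2 (adjusted p up to 0.0705) and with RLE factors (-0.37), and SLC22A23 without any 1 control library (0.0870 to 0.111) and with RLE factors (-0.49). Neither SLC35 gene nor SLC22A23 passed with the length trend removed, and SLC37A3 did not pass with total-read scaling (0.34).

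Protein family descriptions in the deposited table were pooled by keyword into broad types. Of 12 members pooled as amino acid/polyamine transporter type, the SLC6, SLC7, SLC12 and SLC38 genes, 10 rose and 1 fell. Apart from the SLC12 genes these belong to the amino acid class, so the count largely repeats that class. Of 18 members annotated to the major facilitator superfamily 6 rose and 11 fell. These are counts without a test, beside 49.7% and 44.6% for all listed genes.

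Levels between genes were compared per kilobase of transcript. In the controls SLC25A6 (4417 ± 408 normalized counts per kilobase) and SLC25A3 (4085 ± 183) stood first, with overlapping libraries, followed by SLC38A2 (1762 ± 65.0) and SLC1A5 (1021 ± 11.3). SLC38A5 (889 ± 69.3), SLC29A1 (870 ± 56.6) and SLCO4A1 (826 ± 39.8) came next and did not differ beyond their spread. In fasting medium SLC7A5 moved from rank 9 to rank 5 at 2153 ± 25.7 per kilobase, within the range of SLC1A5 (2081 to 2657). SLC29A1 moved from rank 6 to 10 and SLCO4A1 from 7 to 13. SLC6A9 stayed a low-level gene, at 7.71 and 60.7 per kilobase.

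**Figure D3:**
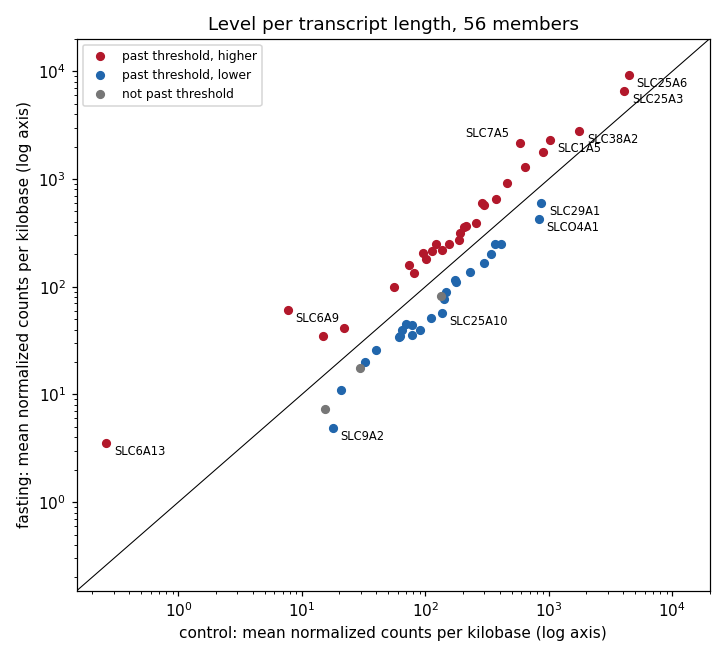
Mean normalized counts per kilobase of transcript in control (horizontal) and fasting medium (vertical), both on log axes, for 56 of the 59 members, with the line of equal level. SLC6A9 and SLC6A13 lie farthest above the line from low control levels, and SLC25A6 and SLC25A3 are the highest in both media.

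The deviation of fasting replicate 3 ran with transcript length among the members as among other genes. Its value minus the mean of the other 2 fasting libraries ranged from -1.54 for SLC9A2 to 0.81 for SLC25A10 on the log2 scale, and had a Spearman correlation of -0.68 with length across the 59 members, which share these libraries. Across 2886 listed genes of at least 100 normalized counts it was -0.70. All 3 members that missed the threshold, SLC16A7, SLC12A2 and SLC30A4, have transcripts of 6885 bases or more and low values in this library, and all 3 passed without it. Without that library 31 members rose and 28 fell, among them all 56 called with it. Of all listed genes 50.2% rose and 49.8% fell in that setting, so nearly every listed gene passed.

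**Figure D4:**
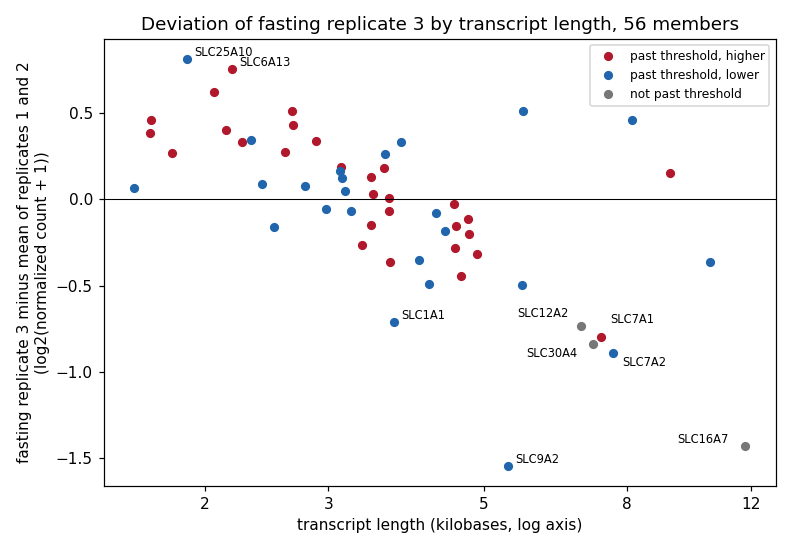
Value of fasting replicate 3 minus the mean of fasting replicates 1 and 2 (log2 scale, vertical) against transcript length in kilobases (log axis) for 56 of the 59 members, coloured by call. Short transcripts lie mostly above 0 and long ones mostly below, with SLC16A7 at -1.43 and 11777 bases.

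Other genes of solute transport were counted from lists of known genes. Of 49 carriers outside the SLC symbols 12 were listed, 9 rising and 3 falling (median 0.83). MFSD1, a lysosomal dipeptide carrier, rose by 0.97 and MFSD2A, the lysolipid carrier, by 0.91, while the mitochondrial serine carrier SFXN1 fell by 0.68. With total-read scaling 2 of the 9 rose. Of 22 accessory and trafficking genes 4 were listed. The kinase SGK1, which keeps carriers at the surface, rose by 1.67 log2 units, and the ion carrier regulator WNK2 (-1.41) and the arrestins ARRDC4 (-1.20) and TXNIP (-0.99), which remove glucose carriers from the surface, fell.

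Transporters driven by ATP were counted in the same way, beside 49.7% rising and 44.6% falling of all listed genes. Of 29 ABC transporters 8 were listed, 2 rising and 6 falling (median -0.73), with ABCG4 at -1.39 and ABCA2 at -1.02. ABCC2, an organic anion exporter, rose from a mean of 5.21 to 42.6 normalized counts (2.93). Of 30 P-type pumps 6 were listed, 2 rising and 4 falling. The lysosomal polyamine exporter ATP13A2 fell by 0.87 and the copper exporter ATP7B by 1.17. The 2 rises, of the calcium pumps ATP2A2 (0.59) and ATP2C1 (0.68), did not pass with total-read scaling, and without any 1 control library 2 of the 4 falls passed.

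Genes of amino acid sensing at the lysosome pass amino acid supply on to mTORC1. Of 31 such genes 8 were listed and 7 of these rose (median 1.11), and the others have no value here. SESN2, a leucine-binding inhibitor of the pathway, rose by 3.32, the GTPase RRAGC by 1.76, its regulator FLCN by 1.63 and the scaffold subunit LAMTOR3 by 1.21. WDR24 had a value of -0.65 (adjusted p = 0.0824). The arginine-sensing carrier SLC38A9 was not listed. With total-read scaling 4 of the 7 rose and WDR24 passed downward.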

How the data were processed

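RNA from 6 libraries of RKO cells was analysed. Tools credited in the submitters' processing notes are DESeq 1.10.1, HTSeq 0.6.1 and UMI-tools 1.0.0, whose roles are unstated. The sources used here do not give aligner, build or strand use. The deposited signal is normalized counts, read from the values. Dividing each by what 1 read contributes gave whole reads for 100% of values (tolerance 0.01 read), with size factors of 0.727 to 1.41. The authors' log2 fold change equals the log2 ratio of group means within 1e-09. The authors' p-value, adjusted p and rank gave the number of genes tested, 29845.

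Limma 3.58.1 with a mean-variance trend was fitted on log2(normalized count + 1) for the 3511 listed genes, whose mean reached 1 in at least one medium throughout. Benjamini-Hochberg adjustment was over 29845 genes, with unlisted ones taken as unchanged. Tests were two-sided. The variance moderation was estimated on listed genes, which were selected for their difference. Alternatives included edgeR 4.0.16 and DESeq2 1.42.0 on the recovered reads. The fit was run on simulated reads with the same variability setting for every gene, mostly unchanged genes and no deviating library. That run does not test the fit under the conditions of these libraries. Transcript lengths came from GENCODE release 29 (98.7% of listed genes), the principal protein-coding transcript. Substrate classes follow SLC family numbers. Of the members 3 enter the counts but are not reported here by name or drawn. All others are named; per-library values go to those among the 12 largest changes and the extremes of each class, and to members that missed the threshold, with other members shown so chosen after their values were seen. The members and lists were chosen with earlier results of these data known. No protein sequence was used here.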

Additional observations from a re-analysis of the deposited data

How the results depend on the processing

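The counts of rising and falling members, their median and each member's value were recomputed under 18 settings. Class and list counts were recomputed under fewer of them. Counts by protein description, levels per kilobase, motif shares and the length correlation were recomputed under none. The number of rising members (31) became 20 with limma without moderation and 14 with total-read scaling, and ran from 25 to 31 on leaving out each library in turn. The number of falling members (25) became 14 without moderation and ran from 17 to 28 on leaving out each library. The median log2 fold change of the members (0.59) became 0.11 with total-read scaling, 0.79 with RLE factors and 0.41 with the trend with transcript length removed, and ran from 0.51 to 0.61 on leaving out each library. SLC44A1 alone changed sign, to 0.0366 with the length trend removed. Of the 56 called members 25 passed in every setting and 15 lost the call on leaving out at least 1 library. Unmoderated variance ended 22 calls. The pseudocounts, the filters on low values and edgeR with the authors' size factors changed no member's call; a minimum of 50 left out SLC6A13.

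The correlation of deviations of same-numbered libraries was 0.03, 0.03 and 0.08 over 2897 genes. This cannot decide whether the samples were paired. Fasting replicate 3 departed widely from the other fasting libraries, and differently numbered pairs were not compared. With a replicate block 31 members rose and 27 fell, the median stayed 0.59, and SLC12A2 and SLC16A7 were added to the calls. Depth limits SLC6A13 most.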
